A study of Homo sapiens with 4 samples.

Results

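HT-29 and CaCo-2 are established human colon adenocarcinoma cell lines, and the values described here are the RNA levels in the nuclear input of each line, transcript by transcript. The input is the RNA of the nuclear lysate that was sequenced with no antibody, as the starting material of an RNA immunoprecipitation (RIP) against beta-catenin. A transcript was included when it was listed in the tables of both lines, its gene model spanned at least 200 nucleotides of the genome, and its input level was at least 1 FPKM in at least 1 line. FPKM is the number of fragments scaled by the length of the transcript and by the mapped fragments of the library. These conditions left 962 transcripts of 893 gene names, out of 19895 transcripts listed in either table and 1928 listed in both. Of those 1928, 41 were shorter than the limit and 925 more lay under 1 FPKM in both inputs. The lowest included level was 1.0011 FPKM, and the highest one left out was 0.9998 FPKM.

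Both lines were grown without treatment, and each contributed 1 input library and 1 RIP library, so there were 4 libraries and no replicates. Nothing below was therefore tested, no value carries an error between libraries, and a difference is that between 1 library and another. The tables hold only transcripts whose RIP level was at least 1.5-fold above input as deposited, so the 962 transcripts are a selected portion of each nuclear RNA. The FPKM values of the tables were normalised separately, and sequencing depth is unknown. In input from many cells, a smaller share of cells with a transcript and less of it per cell cannot be told apart.

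Nuclear RNA differs from whole-cell RNA in what it holds. Transcripts still being spliced, transcripts with retained introns, and long non-coding RNAs that stay at chromatin or in nuclear speckles make up more of it, while most mature messenger RNA has left for the cytoplasm. HT-29 cells are known for a capacity to take on mucus-secreting or absorptive features, whereas CaCo-2 cells take on features of small-intestinal enterocytes when they are kept confluent. Both lines carry activating alterations of Wnt signalling, the pathway whose transcriptional co-activator is beta-catenin.

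Marker genes of intestinal epithelium and of other cell types were looked up in each full table. A table holds only transcripts higher in the RIP than in input. Markers held or missing therefore cannot check the cell type of the lines, and a missing marker is not a level. Of 27 genes of intestinal epithelial identity, 14 were listed for HT-29, 11 of them with an input of at least 1 FPKM, and 11 for CaCo-2, 6 of them at that level. KRT18, an epithelial keratin, reached 17.5 FPKM in HT-29 in a retained-intron transcript and 11.6 FPKM in CaCo-2 in a coding one. Other listed markers of this list were at 0 in input, CDH1 in HT-29 and CLDN4, TSPAN8 and LGALS4 in CaCo-2. Of 16 leukocyte markers, the HT-29 table held 0 and that of CaCo-2 held 2, and of 10 endothelial markers 1 and 0. Of 20 fibroblast and mesenchymal markers the tables held 2 and 4, among them FN1 at 105 FPKM in the CaCo-2 input. No gene of these 3 lists was among the 962 transcripts.

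The inputs differed in both directions in like measure. On the scale of log2((HT-29 input FPKM + 1)/(CaCo-2 input FPKM + 1)), which understates the difference of low transcripts, 187 of 962 transcripts (19.4%) were at least 2-fold higher in HT-29 and 204 (21.2%) at least 2-fold higher in CaCo-2. The median log2 ratio was 0.06, with quartiles of -0.74 and 0.75, and the median input level was 1.33 FPKM in HT-29 and 1.32 FPKM in CaCo-2. Most of the 391 transcripts past 2-fold (40.6% of all) were low in the other line: CaCo-2 input was under 1 FPKM for 159 of the 187, and HT-29 input was under 1 FPKM for 184 of the 204. Among the 351 transcripts with at least 1 FPKM in both inputs, 28 (7.98%) were 2-fold higher in HT-29 and 20 (5.7%) in CaCo-2. Across those 351 transcripts, which share library and normalisation and are not independent replicates, the input levels of the lines had a Pearson correlation of 0.72 and a Spearman rank correlation of 0.45. Across all 962 transcripts these were 0.28 and -0.02; the inclusion rule, which needs a high level in only 1 line, bears on these 2 values.

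**Figure D1:**
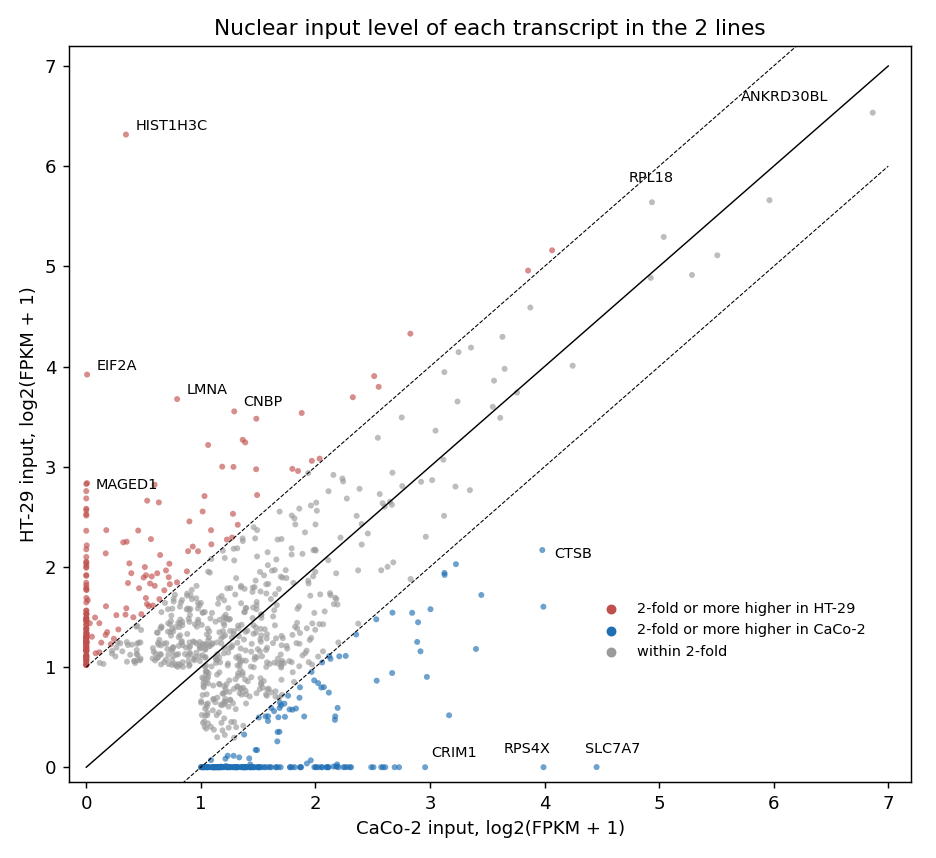
Nuclear input level of each transcript in HT-29 (y axis) and CaCo-2 (x axis), both as log2(FPKM + 1); each point is 1 of the named transcripts, red where 2-fold higher in HT-29 and blue where 2-fold higher in CaCo-2, the solid line marks equal levels and the dashed lines 2-fold. Points along the axes are the transcripts listed at 0 in 1 input, and HIST1H3C (78.6 against 0.271 FPKM) and SLC7A7 (0.00103 against 20.9 FPKM) lie farthest from the line of equal levels.

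The widest difference was in HIST1H3C, which encodes a histone H3 of the replication-dependent kind, made in S phase to package newly copied DNA. Its transcript lies on chromosome 6 at 26045639 to 26046097 of hg19, on the plus strand, and is classed as protein coding. Its input level was 78.6 FPKM in HT-29 and 0.271 FPKM in CaCo-2, a log2 ratio of 5.97. The HT-29 level was among the highest of all 962 transcripts, and the CaCo-2 level was below the inclusion limit. In the RIP the levels were 132 and 0.889 FPKM, so the line with the higher input also had the higher RIP. Its promoter is shown because histone genes of this kind are known for clustered CCAAT boxes close to the start of transcription. The sequence runs from 250 bases before to 50 bases after the start of H3C3, the current symbol of HIST1H3C, at chr6:26045134-26045433 of GRCh38.p14, plus strand, from RefSeq, with each CCAAT in capitals:
HIST1H3C: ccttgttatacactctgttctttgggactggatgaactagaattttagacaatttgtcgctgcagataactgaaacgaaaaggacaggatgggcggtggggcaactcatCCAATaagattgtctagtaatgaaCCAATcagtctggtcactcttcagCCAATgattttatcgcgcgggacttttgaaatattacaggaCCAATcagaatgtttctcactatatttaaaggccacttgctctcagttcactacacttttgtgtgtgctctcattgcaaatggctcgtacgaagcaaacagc
The letters CCAAT, searched on both strands, occurred 4 times in this window. Of 35116 promoters of the same length in the RefSeq table, 34.6% held at least 1 and 0.991% held at least 4. A match is a stretch of letters and not a measured binding site.

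Other histone genes took part in the difference to unequal degrees. H3F3A, which encodes the replacement histone H3.3 made outside S phase, was at 16.7 FPKM in HT-29 and 8.51 FPKM in CaCo-2 (log2 ratio 0.89). H2AFY, which encodes the histone variant macroH2A, was at 6.77 and 2.60 FPKM (1.11). A retained-intron transcript of H3F3B, also a gene of H3.3, was at 1.71 and 0.0823 FPKM (1.32). Both compared coding transcripts of H3F3B went the other way, listed at 0 in HT-29 and at 1.58 and 1.15 FPKM in CaCo-2. The highest coding H3F3B transcripts were each listed for 1 line only, at 24.8 FPKM in HT-29 and 3.23 FPKM in CaCo-2. The compared ones therefore do not stand for the gene. A processed transcript of HIST1H3J was at 2.90 FPKM in HT-29 and 4.18 FPKM in CaCo-2 (-0.41). Its coding transcript was at 34.6 FPKM in HT-29 and was not listed for CaCo-2. By the 1 transcript with the highest mean input per gene, 3 of the 5 histone genes were 2-fold higher in HT-29 and 0 toward CaCo-2, with a median log2 ratio of 1.11. Histone genes have near-identical copies among which reads can be split, so the level of a single copy is uncertain. In the full tables, genes of the HIST clusters numbered 21 in HT-29, 16 of them at 10 FPKM or more in input, and 3 in CaCo-2, with 0 at that level. Absence from a table is not a level, because a table holds only transcripts higher in the RIP. Transcripts of all genes numbered 9880 as listed for HT-29 and 11943 for CaCo-2. Those at 1 FPKM or more in input and listed for 1 line only numbered 2677 for HT-29 and 1879 for CaCo-2. The share of all listed genes at 10 FPKM or more was not counted, so the HIST counts were not compared with it.

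Among transcripts with at least 1 FPKM in both inputs, taking 1 transcript per gene name, the highest ratio was that of CNBP, which encodes a nucleic acid-binding protein with CCHC zinc fingers. CNBP was at 10.7 FPKM in HT-29 and 1.45 FPKM in CaCo-2 (log2 ratio 2.26; chromosome 3, 128888327 to 128902765, hg19). SLC45A4, a member of the solute carrier family, followed with 8.30 and 1.09 FPKM (2.15) in a processed transcript. These were the only genes of this set more than 4-fold higher in HT-29 on the scale with the pseudocount. The next were enzymes: PPA2, the mitochondrial inorganic pyrophosphatase, at 10.1 and 1.80 FPKM (1.99), and GMDS, which makes the precursor of GDP-fucose, at 8.63 and 1.58 FPKM (1.90). RHOC, a small GTPase of the actin cytoskeleton, was at 8.46 and 1.62 FPKM (1.85). Another coding RHOC transcript was at 5.31 FPKM in CaCo-2, and another at 0.870 FPKM in HT-29. Here and below, each ratio is that of 1 transcript and not of the gene. PSMD8, a subunit of the proteasome lid, was at 7.002 and 1.28 FPKM (1.81). LDHA, the lactate dehydrogenase subunit of glycolysis, was at 6.99 and 1.44 FPKM (1.71) in a transcript classed as a target of nonsense-mediated decay. UBXN1, AL358113.1 and PRELID1 completed the highest 10, with ratios between 1.54 and 1.67. All 10 had a CaCo-2 level between 1.02 and 2.68 FPKM and an HT-29 level between 4.87 and 10.7 FPKM.

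In the other direction, ZNF217, which encodes a zinc finger transcription factor on chromosome 20 often amplified in carcinoma, was at 1.27 FPKM in HT-29 and 9.57 FPKM in CaCo-2 (log2 ratio -2.22; chromosome 20, 52183604 to 52210378, hg19). CTSB, the lysosomal protease cathepsin B, was at 3.49 and 14.8 FPKM (-1.81). Both compared transcripts were above 1 FPKM in each line and more than 3-fold apart. Another CTSB transcript, a processed one, was at 5.26 FPKM in HT-29, and a retained-intron one was at 1.77 FPKM in CaCo-2. MGST3, a microsomal glutathione S-transferase, was at 1.23 and 6.55 FPKM (-1.76), and MRPL10, a protein of the mitochondrial ribosome, was at 2.29 and 9.91 FPKM (-1.73). TRAPPC2L, a subunit of a vesicle tethering complex, was at 1.38 and 6.40 FPKM (-1.64). GPRC5A, a retinoic acid-inducible orphan receptor, was at 1.73 and 6.44 FPKM (-1.45). Other GPRC5A transcripts were at 2.56 and 1.53 FPKM in HT-29 and at 0.770 FPKM in CaCo-2, so that ratio is not one of the gene. RPLP0, AC004702.2 and RBM39 were also among the lowest 10, with ratios from -1.43 to -1.20. Another lysosomal protease went the other way: CTSD, which encodes cathepsin D, was at 30.1 FPKM in HT-29 and 13.5 FPKM in CaCo-2 (1.10).

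**Figure D2:**
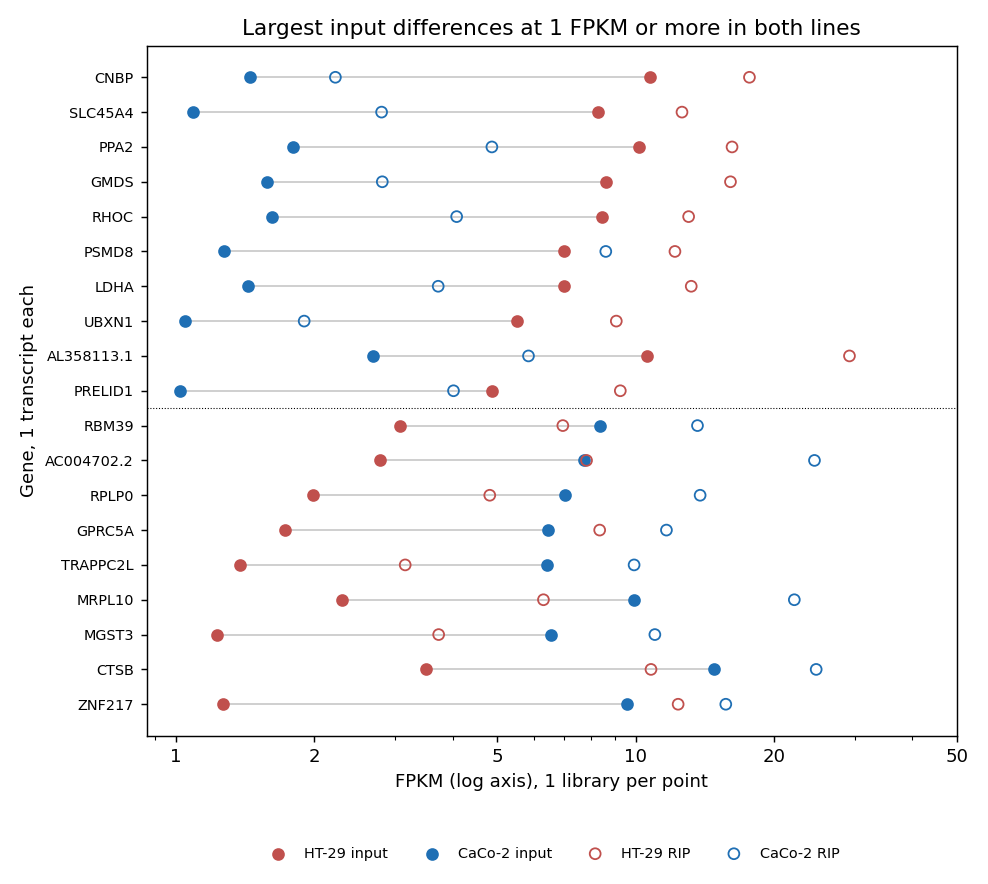
FPKM in nuclear input (filled points) and RIP (open points) on a log axis, HT-29 in red and CaCo-2 in blue, of the 10 genes with the highest and 9 of the 10 with the lowest ratio among transcripts with at least 1 FPKM in both inputs, taking 1 transcript per gene name; each grey line joins the input values of 1 transcript. Of these genes CNBP has the highest ratio (10.7 against 1.45 FPKM) and ZNF217 the lowest (1.27 against 9.57 FPKM).

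Beyond that set, several transcripts were abundant in 1 input and close to or at 0 in the other. SLC7A7, the light chain of a transporter that exports basic amino acids across the basolateral membrane of intestinal and kidney epithelium, was at 0.00103 FPKM in HT-29 and 20.9 FPKM in CaCo-2 (log2 ratio -4.45; chromosome 14, 23242431 to 23289020, hg19). It had the lowest ratio of all 962 transcripts. EIF2A, an initiation factor that can deliver the initiator tRNA, was at 14.1 FPKM in HT-29 and 0.00488 FPKM in CaCo-2 (3.91). PTBP1, a repressor of alternative exons, was at 0.432 and 7.98 FPKM (-2.65). Cufflinks divides reads among the transcripts of a gene, and its part in levels this near to 0 was not tested.

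The HT-29 input was listed at exactly 0 for 115 transcripts and the CaCo-2 input for 85, and all 200 passed 2-fold by construction, so no fold is given for them. The highest of those listed at 0 in CaCo-2 was MAGED1, an X-linked member of the MAGE family, at 6.10 FPKM in HT-29. Next came NDUFB3 of respiratory complex I at 5.76 FPKM, KIAA0100 at 5.42 FPKM and WARS, the tryptophanyl-tRNA synthetase, at 4.98 FPKM. Of those listed at 0 in HT-29, RPS4X, a protein of the small ribosomal subunit, was highest at 14.9 FPKM in CaCo-2. CRIM1, a transmembrane protein that binds BMP ligands, was at 6.77 FPKM there, and COX14, an assembly factor of cytochrome oxidase, at 5.63 FPKM. NPM1, the nucleolar protein nucleophosmin, was at 4.96 FPKM in CaCo-2.

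A listing at 0 did not mean that the gene had no signal. Of 114 named transcripts at 0 in HT-29, 70 belonged to genes with another transcript in the same table, 37 of them at 1 FPKM or more in input. For CaCo-2 the numbers were 84, 54 and 25. RPS4X had RIP levels of 91.5 FPKM for HT-29 and 37.0 FPKM for CaCo-2, the opposite order to its input. MALAT1, a long non-coding RNA of nuclear speckles, was at 1.18 FPKM in HT-29 input and listed at 0 in CaCo-2 input, beside 83.0 and 128 FPKM in the RIP libraries. MALAT1 transcripts outside the tables were not analysed here.

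The transcripts with the highest mean input were mostly within 2-fold of each other in the lines. GSTP1, a glutathione S-transferase, was at 28.5 FPKM in HT-29 and 29.4 FPKM in CaCo-2 (log2 ratio -0.04). RPS3 was at 38.2 and 31.9 FPKM (0.25), and EEF1A1, the elongation factor that brings aminoacyl-tRNA to the ribosome, at 29.1 and 38.0 FPKM (-0.37). A retained-intron transcript of EEF1A1, picked after its values were seen, was at 2.04 and 14.9 FPKM (-2.39), the lowest ratio of any transcript with at least 1 FPKM in both inputs. ANKRD30BL, the highest of all, was at 91.6 and 116 FPKM (-0.33). Of the 24 transcripts with a mean input above 10 FPKM, 19 were within 2-fold, 4 were 2-fold higher in HT-29 and 1 in CaCo-2. Of the 320 with a mean of at most 1 FPKM, 86 were 2-fold higher in HT-29 and 103 in CaCo-2. TSPAN3, a tetraspanin, was 1 of the 4 transcripts above 10 FPKM that were 2-fold higher in HT-29, at 34.8 and 15.7 FPKM (1.09).

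Gene lists were described by 1 transcript per gene name, for which 173 of 891 names (19.4%) were 2-fold higher in HT-29 and 184 (20.7%) toward CaCo-2, with a median log2 ratio of 0.06. Ribosomal protein genes leaned toward HT-29: 19 of 24 had a ratio above 0, the median was 0.48, and 5 were 2-fold higher in HT-29 and 2 in CaCo-2. Of the 16 with at least 1 FPKM in both inputs, 13 lay above 0 with a median of 0.43, beside 175 of 336 genes and a median of 0.05 for all genes at that level. RPL27A, of the large subunit, was at 13.97 FPKM in HT-29 and 4.71 FPKM in CaCo-2 (1.39). The compared transcript of RPLP0, the stalk protein that recruits elongation factors, was at 1.98 and 7.02 FPKM (-1.43). The HT-29 table also held other RPLP0 transcripts, the highest at 53.8 and 26.5 FPKM in input, while the others in the CaCo-2 table were listed at 0, so that ratio is not one of the gene. The compared RPL31 transcript was at 33.5 and 44.5 FPKM (-0.40), beside another at 50.8 FPKM that was listed for HT-29 and not for CaCo-2. Ribosomal protein genes have many processed pseudogenes, so shared reads make single levels uncertain.

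Translation factors had a median of 0.58 over 13 names, with 3 at 2-fold in HT-29 and 1 in CaCo-2. Besides EIF2A, they were EIF3J, a loosely bound subunit of eIF3, and EEF1A1P13. The EIF3J transcript, of the retained-intron class, was at 1.41 FPKM in HT-29 and listed at 0 in CaCo-2. EEF1A1P13 is a processed pseudogene that the list took by its name, at 2.18 and 0.0093 FPKM. The 1 in CaCo-2 was EIF2AK1, a kinase of eIF2 and not a factor itself, at 0.0198 and 1.70 FPKM (-1.40) in a retained-intron transcript. A coding EIF2AK1 transcript, listed for HT-29 and not for CaCo-2, was at 5.39 FPKM, so that ratio is not one of the gene. TPT1, a translationally controlled protein, was at 4.71 and 2.47 FPKM (0.72) in a retained-intron transcript.

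Splicing factors and hnRNPs, the proteins that remove introns and coat nascent RNA, had a median of -0.33 over 22 genes, 14 of them below 0. Those past 2-fold were split, with 2 higher in HT-29 and 3 in CaCo-2. DDX5, an RNA helicase, was at 6.06 FPKM in HT-29 and 0.512 FPKM in CaCo-2 (2.22) in a transcript classed for nonsense-mediated decay. SRSF10, an SR protein, was at 3.85 and 0.479 FPKM (1.71) in a retained-intron transcript. On the other side stood PTBP1, RBM39 and PRPF8, a core protein of the spliceosome, listed at 0 in HT-29 and at 1.60 FPKM in CaCo-2. RBM39, a splicing coactivator, was at 3.08 and 8.36 FPKM (-1.20). The transcripts of DDX5, SRSF10, PRPF8 and RBM39 are not classed as protein coding, so these values are not levels of the coding messenger RNA.

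Chromatin regulators had a median of -0.43, with 10 of 13 genes below 0, 4 at 2-fold in CaCo-2 and 1 in HT-29. EED, a subunit of Polycomb repressive complex 2, was at 0.740 FPKM in HT-29 and 3.21 FPKM in CaCo-2 (-1.27). DNMT3A, a de novo DNA methyltransferase, was at 0.474 and 2.11 FPKM (-1.08). CHD8, a chromatin remodeller known to bind beta-catenin, was at 1.12 and 3.38 FPKM (-1.05). All 3 were protein-coding transcripts and higher in CaCo-2. CHD6, a related remodeller, was the exception past 2-fold, at 1.36 FPKM in HT-29 and listed at 0 in CaCo-2.

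Metabolic genes were spread widely. Nuclear-encoded respiratory chain genes had 4 of 15 at 2-fold toward HT-29 and 6 toward CaCo-2, with a median of -0.77, and 8 of the 15 were listed at 0 in 1 input. Without those 8 the median of the other 7 was -0.09. NDUFB3 and NDUFB9, of complex I, were listed at 0 in CaCo-2, while NDUFC2 of the same complex, ATP5A1 of the ATP synthase and COX14 were listed at 0 in HT-29. Cholesterol and lipid metabolism genes had a median of -0.76 over 8 genes, with 1 at 2-fold in HT-29 and 3 in CaCo-2. ACACA, the acetyl-CoA carboxylase of fatty acid synthesis, ACSL3 and STARD4 were listed at 0 in HT-29, at 3.16, 2.15 and 2.04 FPKM in CaCo-2. The ACACA transcript is of the retained-intron class. Coding ACACA transcripts were at 2.44 FPKM in HT-29 and 0.622 FPKM in CaCo-2, and another retained-intron one was at 3.71 FPKM in CaCo-2. Without the genes listed at 0 the median of the lipid list was -0.12 over 5 genes. Of 25 glycolysis genes, 2 were compared, LDHA and ALDOA, and both compared transcripts were 2-fold higher in HT-29, with ALDOA at 2.59 and 0.731 FPKM (1.05). The compared LDHA transcript is not a coding one. Coding LDHA transcripts, not the same ones in the lines, were listed at 0 in HT-29 and at 0.997 and 0.468 FPKM in CaCo-2. The highest ALDOA transcripts listed, both coding, were at 24.7 FPKM in HT-29 and 8.91 FPKM in CaCo-2.

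SLC transporters had a median of 0.02 over 15 genes (-0.01 after centring or upper-quartile scaling) despite holding SLC7A7 and SLC45A4, 1 of them at 2-fold toward HT-29 and 3 toward CaCo-2. The other 2 of the 3 were SLC4A2, an anion exchanger, and SLC39A5, a zinc importer. Their compared transcripts were listed at 0 in HT-29 and at 2.43 and 1.94 FPKM in CaCo-2. The highest SLC4A2 transcripts listed, both coding, were at 5.78 FPKM in HT-29 and 4.14 FPKM in CaCo-2, so the compared one does not stand for the gene. Genes named ZNF were at 2 and 3 of 6. Host genes of small nucleolar RNAs had a median of -0.08 over 8 genes. SNHG17 was the 1 past 2-fold, listed at 0 in HT-29 and at 1.90 FPKM in CaCo-2. GAS5, another host gene, was at 2.31 and 2.14 FPKM (0.08) in the compared lincRNA transcript. Another GAS5 transcript was at 3.74 FPKM in HT-29 and 0.251 FPKM in CaCo-2. Further ones at 1.54 and 1.46 FPKM in HT-29 were listed at 0 in CaCo-2, so that ratio is not one of the gene.

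**Figure D3:**
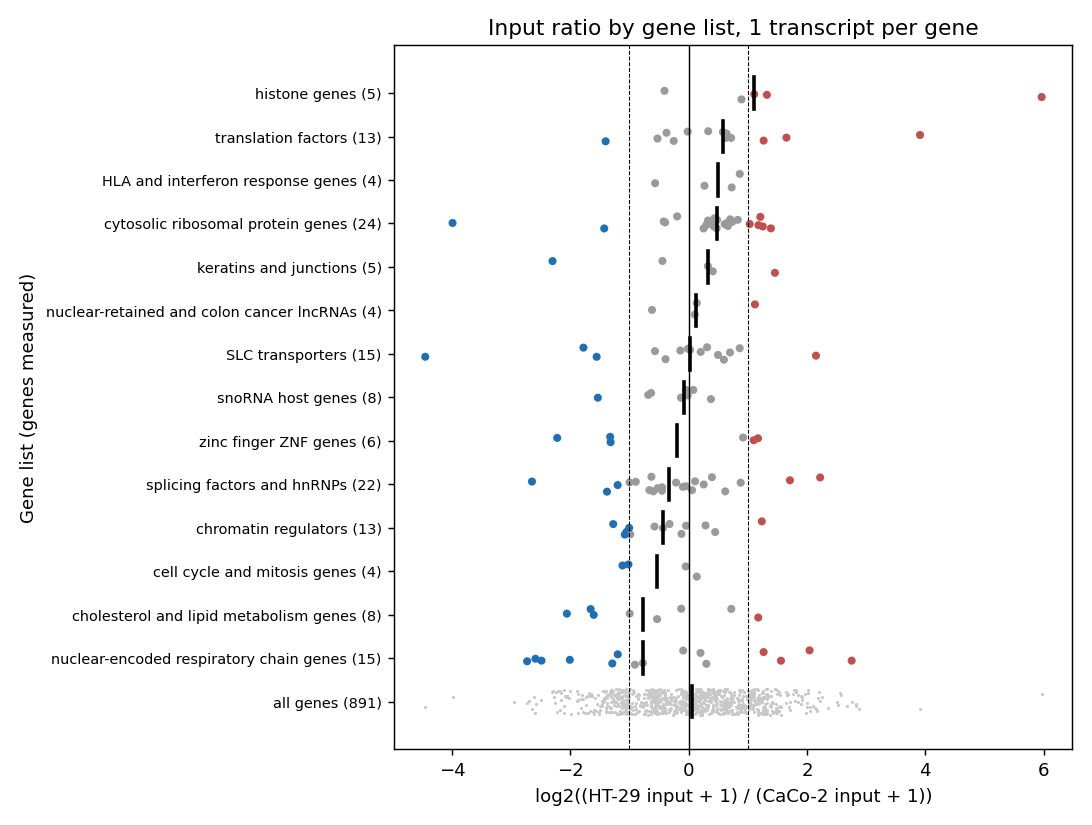
Log2 ratio of HT-29 over CaCo-2 nuclear input (x axis) for 1 transcript per gene in each gene list (y axis); each point is 1 gene (red and blue past 2-fold), each bar a median, and lists under 4 genes are left out. Ribosomal protein genes have a median of 0.48 and chromatin regulators one of -0.43, and both lists hold genes on either side of 0.

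Genes of epithelial identity and of Wnt signalling were few. KRT18 was at 14.7 FPKM in HT-29 and 11.6 FPKM in CaCo-2 (0.33), and a retained-intron transcript of its partner KRT8 at 5.42 and 3.84 FPKM (0.41), both within 2-fold. The compared coding transcript of KRT8 was at 1.34 FPKM in HT-29 and listed at 0 in CaCo-2, and another coding transcript, listed for CaCo-2 and not for HT-29, was at 14.6 FPKM. CLDN4, a tight junction protein, was at 1.75 FPKM in HT-29 and listed at 0 in CaCo-2, while PKP4, a plakophilin of cell junctions, was listed at 0 in HT-29 and at 3.93 FPKM in CaCo-2. TFF3, a peptide of goblet cell mucus, was at 0.0631 and 1.68 FPKM (-1.33) in a processed transcript, whereas CREB3L1, a transcription factor and the other gene of the goblet and secretory list here, was at 1.36 and 0.229 FPKM (0.94) in a retained-intron transcript. RNF43, a Wnt target that removes Frizzled receptors from the cell surface, was at 6.88 FPKM in HT-29 and 2.48 FPKM in CaCo-2 (1.18), also in a processed transcript. CSNK1A1, the kinase that primes beta-catenin for degradation, was at 0.820 and 4.80 FPKM (-1.67). CTNNB1, which encodes beta-catenin itself, was not among the 962 transcripts. Of the receptor tyrosine kinase and RAS genes, HRAS was listed at 0 in HT-29 and at 1.24 FPKM in CaCo-2, and MET was at 1.35 and 0.601 FPKM (0.56). Of 30 lists, 6 had 0 genes among the 962 transcripts, among them the enterocyte and the plasma protein lists.

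Retained-intron transcripts leaned toward CaCo-2, and the other large classes were close to even. Of 184 retained-intron transcripts, which keep an intron that the coding form lacks, 21 (11.4%) were 2-fold higher in HT-29 and 47 (25.5%) toward CaCo-2, with a median log2 ratio of -0.29. Of 511 protein-coding transcripts, 116 were 2-fold higher in HT-29, 110 were in CaCo-2, and the median was 0.16. Processed transcripts were even, with 25 and 27 of 136 and a median of 0.10. Much of the retained-intron split lay in transcripts listed at 0, which numbered 32 in HT-29 and 11 in CaCo-2. Without transcripts listed at 0, 10 retained-intron transcripts were 2-fold higher in HT-29 and 15 in CaCo-2. Among the 52 with at least 1 FPKM in both inputs, the counts were 0 and 3 and the median was -0.08. Retained-intron transcripts were also lower, with a median mean input of 1.15 FPKM beside 1.37 FPKM for protein-coding ones, and the part of this level in the split was not tested.

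Within genes, 11 names had both a retained-intron and a protein-coding transcript among the 962. The retained-intron ratio was the lower in 6 of them, and the signs were opposite in 5. ANXA2, a calcium-dependent membrane-binding protein, was at 0.501 FPKM in HT-29 and 2.56 FPKM in CaCo-2 in its retained-intron form, and at 14.4 and 7.73 FPKM in its coding form. IPO7, a nuclear import receptor, was listed at 0 in HT-29 and at 1.59 FPKM in CaCo-2 in its retained-intron form, and at 11.9 and 4.02 FPKM in its coding form. The coding form was higher in HT-29 and the retained-intron form in CaCo-2 in 4 of the 5 genes with opposite signs, which were ANXA2, IPO7, IST1 and WAC. H3F3B had the reverse, as given above. ANXA2 and IPO7 were picked here after their values were seen.

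**Figure D4:**
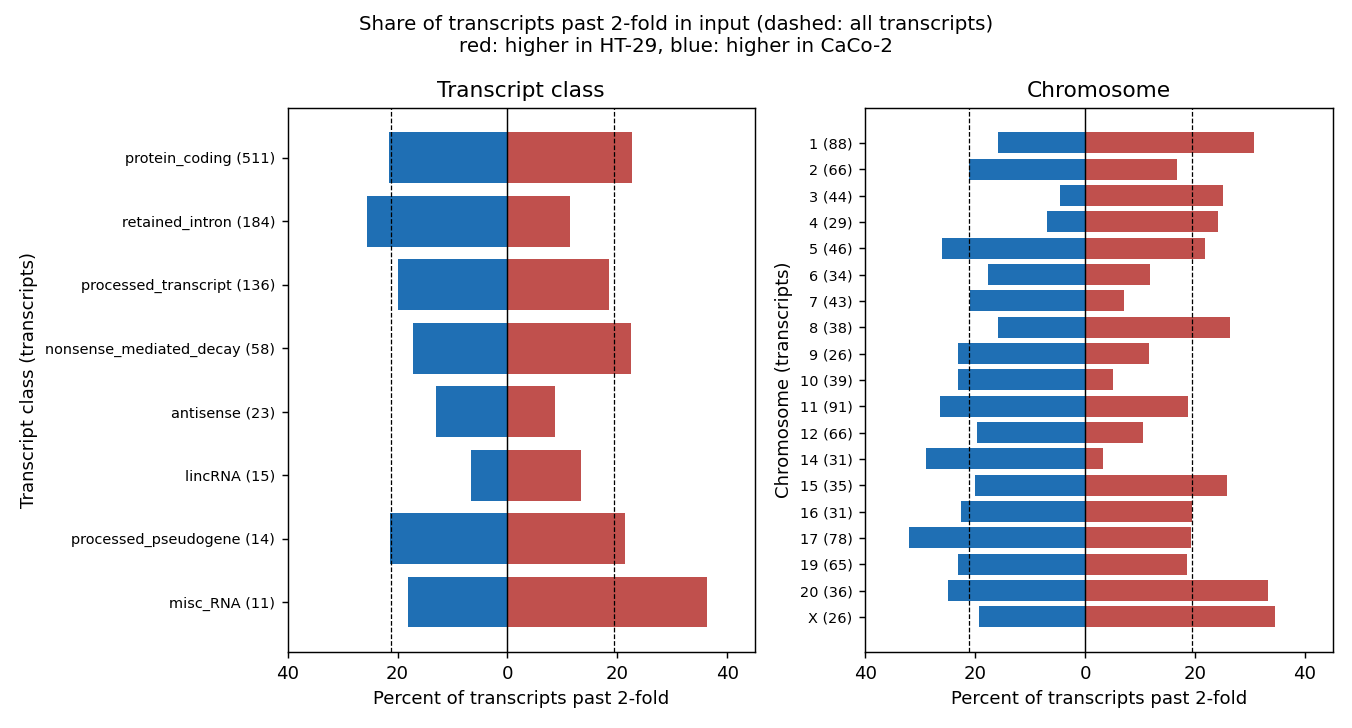
Percent of transcripts at least 2-fold higher in HT-29 or in CaCo-2 nuclear input, by transcript class (10 or more transcripts) and by chromosome (25 or more); dashed lines give the shares over all transcripts (19.4% and 21.2%). Retained-intron transcripts stand at 11.4% and 25.5%, and chromosomes 1, 3 and 4 lean toward HT-29 while chromosomes 7, 10 and 14 lean toward CaCo-2.

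The direction also varied by chromosome. On chromosome 1, 27 of 88 transcripts were 2-fold higher in HT-29 and 14 toward CaCo-2, with a median log2 ratio of 0.45. On chromosome 3 the counts were 11 and 2 of 44 (median 0.34), and on chromosome 4 they were 7 and 2 of 29 (0.49). The reverse held on chromosome 14, with 1 and 9 of 31 (-0.57), on chromosome 10, with 2 and 9 of 39 (-0.30), and on chromosome 7, with 3 and 9 of 43 (-0.29). These 6 chromosomes were picked after their values were seen. Chromosome 17 was intermediate, with 15 and 25 of 78 (-0.16), and chromosome 20, which holds ZNF217, had 12 and 9 of 36. Copy number of the lines was not measured here. Ordered by genomic span and cut into 4 bins, the shortest bin had 43 transcripts 2-fold higher in HT-29 and 56 in CaCo-2 of 241, the next bins 41 and 47 of 240 and 57 and 50 of 240, and the longest 46 and 51 of 241.

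Transcripts of 1 gene could differ in direction. Of 60 gene names with more than 1 transcript among the 962, 9 had transcripts past 2-fold in both directions: ARL1, CSNK1A1, GUK1, H3F3B, IDH3A, IPO7, IST1, KIAA0100 and MORF4L2. Another 6 had at least 2 transcripts past 2-fold in 1 direction only. CSNK1A1 had a transcript at 0.820 FPKM in HT-29 and 4.80 FPKM in CaCo-2, and another at 2.76 FPKM in HT-29 and listed at 0 in CaCo-2. MORF4L2, a chromatin-associated protein of the MRG family, was listed at 0 in HT-29 and at 3.32 FPKM in CaCo-2 in a coding transcript, and at 1.79 FPKM and at 0 in a processed transcript. Each of the 9 genes had at least 1 transcript listed at 0 in an input. For these genes a ratio of 1 transcript is not a ratio of the gene.

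Ratios ran from -2.01 to 2.88 over 136 processed transcripts and from -1.21 to 1.30 over 15 lincRNAs. Over 511 protein-coding transcripts they ran from -4.45 to 5.97. Such a range widens with the number of transcripts, so it does not compare the classes. The quartiles were -0.68 and 0.83 for processed transcripts, -0.60 and 0.31 for lincRNAs, and -0.74 and 0.89 for protein-coding ones. A processed transcript of LMNA, the gene of the nuclear lamins A and C, was at 11.8 FPKM in HT-29 and 0.733 FPKM in CaCo-2 (log2 ratio 2.88), with RIP levels of 31.3 and 1.82 FPKM. GCLM, the modifier subunit of the enzyme that starts glutathione synthesis, was at 4.16 and 0.129 FPKM (2.19). SEC31A, a coat protein of vesicles that leave the endoplasmic reticulum, was at 0.508 and 3.57 FPKM (-1.60), and EMD, the inner nuclear membrane protein emerin, at 0.196 and 2.18 FPKM (-1.41). These are processed transcripts of coding genes. Of 15 lincRNAs, 2 were 2-fold higher in HT-29 and 1 in CaCo-2. The lincRNA AC004702.2 was the highest in ratio toward CaCo-2 among those with at least 1 FPKM in both inputs, at 2.78 and 7.74 FPKM (-1.21). OIP5-AS1 was at 1.37 and 1.20 FPKM (0.11).

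The RIP levels of the same transcripts followed the inputs in direction. Over all 962, the RIP was 2-fold higher in HT-29 for 143 (14.9%) and in CaCo-2 for 43 (4.47%), and it was higher in HT-29 at any size for 572 (59.5%), with a median log2 ratio of 0.19. The lowest RIP level held by a table was 1.31 FPKM for HT-29 and 0.842 FPKM for CaCo-2, and the part of this difference in the uneven counts was not tested. Of the 187 transcripts 2-fold higher in HT-29 input, 170 had a higher RIP in HT-29, 90 of them by 2-fold, and 1 was 2-fold lower. Of the 204 higher in CaCo-2 input, 148 had a higher RIP in CaCo-2, 38 of them by 2-fold, and 12 were 2-fold lower there. The median RIP log2 ratio was 0.97 in the first set, -0.42 in the second and 0.16 in the 571 within 2-fold in input. Across the 962 transcripts, the input ratio and the RIP ratio had a Pearson correlation of 0.69 and a Spearman rank correlation of 0.69. Every listed transcript has a RIP at least 1.5-fold above its own input as deposited, so a high input requires a high RIP and the ratios are linked by the selection.

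Single genes showed both patterns. CNBP had RIP levels of 17.7 FPKM in HT-29 and 2.22 FPKM in CaCo-2 (log2 ratio 2.54), and SLC7A7 had 3.78 and 39.1 FPKM (-3.07), each as in input. ZNF217 was at 12.4 and 15.7 FPKM in the RIP (-0.32), much closer than its inputs. PSMD8 was likewise closer in the RIP, at 12.2 and 8.61 FPKM (0.46). CSNK1A1 was at 8.26 and 7.34 FPKM in the RIP (0.15), in spite of its lower input in HT-29.

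**Figure D5:**
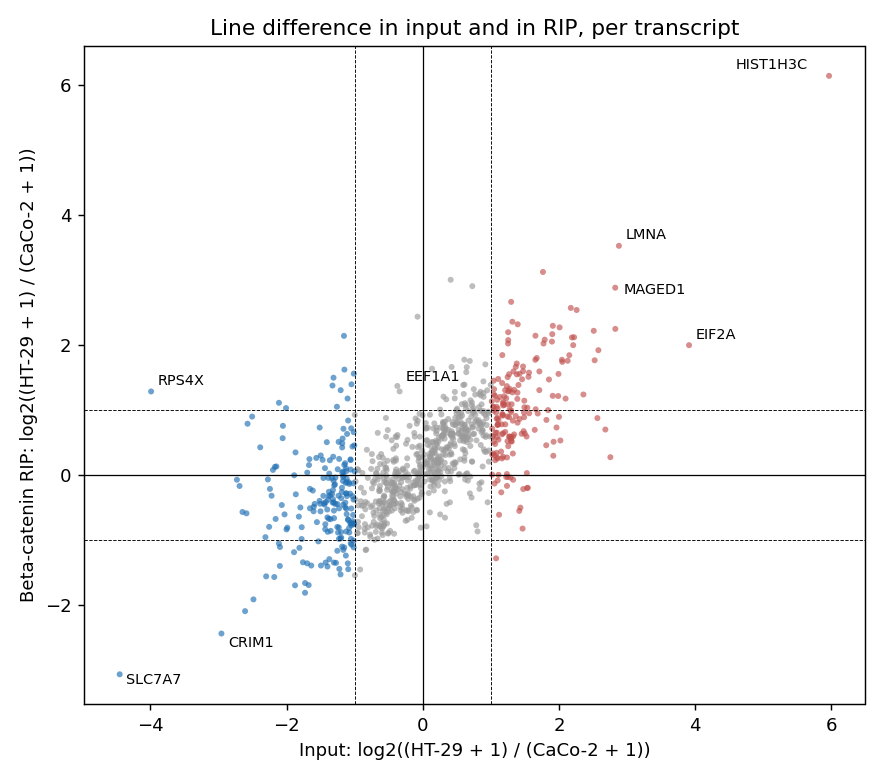
Log2 ratio of HT-29 over CaCo-2 in the RIP (y axis) against the same ratio in nuclear input (x axis), 1 point per transcript, with dashed lines at 2-fold and colours by the input ratio (red 2-fold higher in HT-29, blue in CaCo-2). Of the 187 transcripts 2-fold higher in HT-29 input, 90 are also 2-fold higher in its RIP, while RPS4X, listed at 0 in HT-29 input and placed on the x axis by the pseudocount alone, is higher in the HT-29 RIP (log2 ratio 1.28).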

How the data were processed

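Nuclear input and beta-catenin RIP RNA of HT-29 and CaCo-2 were sequenced as TruSeq RNA libraries, per the labels' protocols. Per the submitters' processing notes, the build was hg19 and the tools were TopHat2 2.0.8, Bowtie2, Cuffdiff, Cufflinks and CASAVA 1.4. Strandedness is not given in the sources used here, so overlapping and antisense genes may share reads. The authors deposited 1 table per line with FPKM values per Ensembl transcript, normalised within that table. Coordinates are hg19, counted from 1.

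The tables were joined on the transcript identifier, and log2 ratios used a pseudocount of 1 FPKM (Python 3.11.15, pandas 2.3.3). With 1 library per group no test was made; a difference was counted from 2-fold. The script was tested on simulated data. Gene lists used the transcript with the highest mean input per name. Named genes were the 10 highest and 10 lowest ratios with 1 FPKM in both inputs, the 10 highest inputs per line listed at 0 in the other, the 10 highest means, the 5 highest and 5 lowest non-coding transcripts, up to 6 genes per list, CTNNB1 and the 4 genes with the widest opposite transcripts; others are said to be chosen afterwards. The members, lists and rules were chosen with earlier results of these data known. RefSeq symbols of GRCh38.p14 matched 773 of 891 names. Date-like names (4 transcripts) were counted but not named, and some genes that the rule names are not reported here.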

Additional observations from a re-analysis of the deposited data

How the results depend on the processing

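Scaling changed little: after centring, after upper-quartile scaling and after summing the transcripts of each gene name, the counts of 187 and 204 transcripts stayed within 1.5 times, and no transcript past 2-fold turned direction under any setting run. With a pseudocount of 0.1 FPKM, 286 transcripts were 2-fold higher in each direction, among them 35 retained introns toward HT-29 and 68 toward CaCo-2. With 5 FPKM, the counts were 15 toward HT-29 and 13 toward CaCo-2, 0 and 2 for retained introns and 0 genes with transcripts past 2-fold both ways. Requiring 1 FPKM in both inputs gave 28 and 20, with 0 and 3 retained introns and 0 such genes. A minimum of 5 FPKM in 1 input gave 31 and 23, a median log2 ratio of 0.31, 0 and 4 retained introns and 0 such genes. A minimum span of 2000 nucleotides left 13 and 27 retained introns and 4 such genes. Without transcripts listed at 0, an alternative added after the data were seen, as were the retained-intron and both-way counts, 102 and 89 transcripts remained past 2-fold, with 10 and 15 retained introns and 0 such genes. Each of these settings except the pseudocounts counts fewer transcripts, and a larger pseudocount shrinks the ratio of low ones. Of 109 recomputed list medians, 108 stayed within their intervals, which are wide for short lists, and 103 kept their sign. The other 6 were those of the SLC transporters under 3 settings, and of the translation factors, the ZNF genes (1.01 with a span of 2000) and the keratins and junctions (-0.03 without transcripts listed at 0). The median of the ribosomal protein genes was 0.23 with a pseudocount of 5 FPKM. Of 137 named genes, 3 crossed 2-fold under each of the scalings and 71 with a pseudocount of 5 FPKM. No paired analysis was possible because each group has 1 library. Depth is unknown, so no interval can be set on a low FPKM, and most differences past 2-fold rest on a low level in 1 line.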

Other observations

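Transcripts listed in only 1 of the tables have no ratio, since a transcript that is missing from a table has no measured level there. With an input of at least 1 FPKM and a span of at least 200 nucleotides, 2677 such transcripts were listed for HT-29 and 1879 for CaCo-2. Only the protein-coding ones were ranked, taking 1 per gene name. The highest in HT-29 were RPL39 at 539 FPKM, RPL37A at 336 FPKM and HIST1H1C, a linker histone gene, at 246 FPKM. RPL19 followed at 239 FPKM. In CaCo-2 the protein-coding ones were led by FN1, which encodes fibronectin, at 105 FPKM. The glucose transporter gene SLC2A3 at 23.3 FPKM and FTH1, the ferritin heavy chain, at 22.7 FPKM came next.

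Genes of plasma proteins, which are made mainly in liver, were listed mostly for CaCo-2. Of 30 such genes, 13 were in the CaCo-2 table, 8 of them at 1 FPKM or more in input, and 2 were in the HT-29 table, 0 of them at that level. AHSG, which encodes fetuin-A, was at 17.5 FPKM in CaCo-2 input, FGG, a fibrinogen chain, at 17.2 FPKM and ITIH2 at 2.61 FPKM. Those under 1 FPKM there were A1CF at 0.9997 FPKM, F2 at 0.498 FPKM, TTR at 0.222 FPKM, ALB at 0.0983 FPKM and SERPING1 at 0. The list of plasma protein genes was chosen with earlier results of these data known. Transcripts of all genes numbered 11943 as listed for CaCo-2 and 9880 for HT-29. The lowest RIP level held was 0.842 FPKM for CaCo-2 and 1.31 FPKM for HT-29, so low transcripts could enter more easily for CaCo-2. The part of these differences in the counts of plasma protein genes was not tested.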
